A study of Mus musculus with 2 samples.

Results

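The cells described here are islet-infiltrating CD8 T cells that carried transcripts of the memory-associated receptors Il7r or Gpr183 together with the chemokine Ccl5, and that lacked the transcripts used to recognise cytotoxic, recently activated or dividing cells. They were chosen on their own counts of unique molecular identifiers (UMIs, each tagging 1 captured mRNA molecule). A cell barcode was kept when it held 200 to 5000 genes and at most 20% mitochondrial UMIs, and was taken as a CD8 T cell when Cd8a and Cd8b1 summed to at least 2 UMIs with no Cd4 or Foxp3 UMI. Among those cells, the memory-like gate required at least 1 UMI of Il7r or Gpr183, at least 4 UMIs of Ccl5, 0 UMIs of Gzmb, Havcr2 and Entpd1, fewer than 2 UMIs over Cd200, Nrn1 and Tnfrsf4, and fewer than 3 UMIs over Mki67, Top2a, Birc5, Ube2c and Cdk1. The gate held 193 cells, 85 from wild-type and 108 from CD137 knockout mice, out of 2091 CD8 T cells and 5629 kept cells in all. The 18 genes that set the gate were left out of every comparison of genes.

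Memory CD8 T cells survive after an immune response and return quickly to effector function. Il7r encodes the alpha chain of the interleukin-7 receptor, which keeps naive and memory T cells alive, and Gpr183 encodes a chemotactic receptor for oxysterols. Ccl5 is a chemokine made by antigen-experienced CD8 T cells and is nearly absent from naive ones, so Il7r with Ccl5 is a usual mark of memory. CD137, encoded by Tnfrsf9, is a costimulatory receptor of the TNF receptor family that T cells display after antigen recognition.

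The mice were females of the NOD strain, which develops autoimmune diabetes, aged 9 to 10 wk and prediabetic. The wild-type group was NOD.Foxp3-EGFP, whose regulatory T cells (Tregs) fluoresce green, and the knockout group was NOD.Tnfrsf9-/-.Foxp3-EGFP, which carried the same reporter and lacked CD137 in every cell and not in CD8 T cells alone. Islet cells of 6 mice of each strain were pooled and sorted into CD8 T cells and Foxp3-reporter-positive CD4 T cells, which were sequenced in 1 library per genotype by the 10x Genomics 3' method. With 1 library per genotype, the spread between mice was not measured and no test between genotypes was possible. Every interval below is a 95% interval that covers counting error only, and every difference is between these 2 libraries.

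The libraries held 19904506 (wild type) and 19639995 (knockout) UMIs. Memory-like cells had a median of 5213 UMIs in wild type (range 1382 to 15776) and 5706 in knockout (3195 to 12931), beside 6249 and 5253 in the other CD8 T cells. Levels are therefore given as the UMIs of a gene scaled to the UMI total of the same class and library (CPM), from 471523 and 660174 UMIs in the gate. Among all 5795 barcodes, 16 occurred in both libraries, and none of them was a memory-like cell. Defining genes of other cell types were at or near 0 in the gate: the B cell list gave 9 and 4 UMIs, all from Cd79b, the acinar list 1 and 9, the endocrine list 0 and 5, and the erythroid list 0 and 0. Genes of the endothelial list, mostly Pecam1, gave 26 and 45 UMIs, and those of the Treg list, led by Ctla4, which activated CD8 T cells also express, gave 216 and 292. The myeloid list gave 235 and 105 UMIs and the NK, NKT and gamma-delta list 65 and 3, with Lyz2, Csf1r and Ncr1 at 0. A single wild-type cell of 15776 UMIs held 170 of the myeloid UMIs, 114 of them from Cd74 and 47 from H2-Aa, and all 65 of the NK UMIs, while no other wild-type cell of the gate held more than 3 myeloid UMIs. Values that move with that cell are given with and without it where the gene is described.

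Tnfrsf9, the targeted gene (chr4:150914562-150946102, plus strand, mm10), was sparse in memory-like cells of both genotypes. It gave 8 UMIs in 7 of 85 wild-type cells (17 CPM, 7.32 to 33.4) and 5 UMIs in 5 of 108 knockout cells (7.57 CPM, 2.46 to 17.7), so a difference in the gate was not detectable at this depth (log2 ratio -1.16, -3.12 to 0.63). In the other CD8 T cells it was at 113 and 34.2 CPM (-1.72, -1.94 to -1.51). Tnfrsf9 UMIs were therefore still counted in the knockout library, and whether the sequenced 3' end lies outside the deleted part was not analysed here.

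Within the gate the 3 selecting transcripts were unevenly spread, which is a description of the selection and not a result. Il7r was counted in 71.8% of members in wild type and in 83.3% in knockout, and Gpr183 in 49.4% and 51.9%. In wild type 43 cells held Il7r alone, 24 held Gpr183 alone and 18 held both, against 52, 18 and 38 in knockout. The median memory-like cell held 52 Ccl5 UMIs in wild type (range 4 to 306) and 27 in knockout (4 to 351). Cells close to the Ccl5 threshold were few, with 3 and 5 cells at exactly 4 UMIs inside the gate and 3 and 4 cells at exactly 3 UMIs outside it. The receptor threshold was closer to many cells: 30 and 35 cells entered on a single Il7r or Gpr183 UMI, and 109 and 74 cells that met every other condition had none. The activation limit let in 21 and 19 cells with 1 UMI and kept out 7 and 5 with 2, the proliferation limit let in 2 and 4 cells with 2 UMIs and kept out 3 and 2 with 3, and 10 and 7 cells were kept out by a single cytotoxic UMI. Ccl5 also appeared outside CD8 T cells, since 37 of 205 wild-type Tregs (18.0%, interval 13 to 24) and 23 of 281 knockout Tregs (8.19%, 5.26 to 12) held at least 4 UMIs, although the median Treg held 1 and 0.

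The memory-like label is described with Gzmm and Itgb1, the only ones of its markers that the gate did not use. Both were chosen with earlier results of these data known, so they are not an independent check. Gzmm was also below the minimum of 50 CPM set for the genes compared between classes. Gzmm, which encodes the cytotoxic protease granzyme M, stood at 38.2 CPM (22.6 to 60.3) in wild-type and 72.7 (53.6 to 96.4) in knockout memory-like cells, against 2.90 and 3.73 CPM in the other CD8 T cells. It was counted in only 10.6% and 20.4% of memory-like cells, beside 1.61% and 1.83% of other CD8 T cells, 0 of 205 wild-type Tregs, which allows a share of cells with a UMI of up to 1.46% (taking 3 cells as the limit that a count of 0 allows), and 1.07% of knockout Tregs. After every cell was thinned to 2000 UMIs the shares in the gate were 2.41% and 12%, and 1 wild-type cell held 33.3% of the wild-type Gzmm UMIs. Itgb1, the integrin beta 1 chain that T cells use to bind matrix and endothelium, reached 664 CPM (592 to 742) in wild type and 651 (591 to 716) in knockout, against 374 and 289 in the other CD8 T cells. The median memory-like cell held 3 Itgb1 UMIs in either library, with ranges of 0 to 15 and 0 to 23, and 83.5% and 79.6% of them held at least 1. The thinned shares were 57.8% and 54.6%, beside 40.1% and 24.9% of other CD8 T cells and 29.0% and 30.7% of Tregs. Other genes linked to memory did not all follow: Cxcr3, a chemokine receptor of effector and memory T cells, was higher in the gate (161 and 126 CPM against 92.8 and 63.5), but Cd44, whose protein marks antigen-experienced cells, was at 89.1 and 77.3 CPM in the gate and 89.9 and 85.3 outside it. Eomes, a transcription factor of memory CD8 T cells, was at 53.0 CPM in the wild-type gate and 103 outside it, and at 36.4 and 32.1 in knockout. The survival gene Bcl2 was higher in the gate (254 and 264 CPM against 140 and 208). The granzyme gene Gzmk was not, at 146 and 48.5 CPM in the gate and 180 and 47.3 outside it. Tox, which is associated with chronically stimulated T cells, was counted in 78.8% and 76.9% of memory-like cells, beside 87.2% and 74.4% of the others. Its level was 685 and 597 CPM in the gate and 970 and 671 outside it.

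The share of memory-like cells among CD8 T cells differed little between the libraries. They made up 85 of 891 CD8 T cells in wild type (9.54%, 7.69 to 11.7) and 108 of 1200 in knockout (9%, 7.44 to 10.8), a difference of -0.54 percentage points with an interval of -3.12 to 1.94. The CD8 T cells around them were composed differently. Each remaining cell was put in the first class it met of proliferating-gated, activated-gated, cytotoxic-gated, receptor-negative (neither Il7r nor Gpr183) and Ccl5-low (Il7r or Gpr183 with at most 3 Ccl5 UMIs), using the same transcripts as the gate. In the knockout library the Ccl5-low class was 17.5 points larger (14.2 to 20.7), at 28.1% against 10.5%, and the proliferating-gated class was 12.3 points smaller, at 8.08% against 20.4%. The share therefore depended on what it was divided by. Among CD8 T cells with at least 4 Ccl5 UMIs, memory-like cells were 14.0% of 606 in wild type and 23.6% of 457 in knockout, 9.61 points higher (4.87 to 14.4), whereas outside the Ccl5-low class they were 10.7% and 12.5%, a difference of 1.85 points (-1.25 to 4.93).

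**Figure D1:**
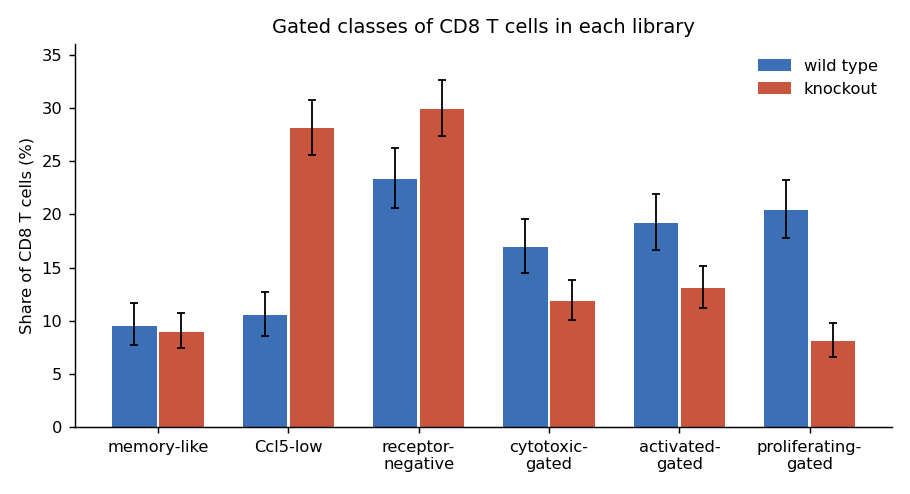
Share of CD8 T cells (percent, with exact binomial 95% intervals) in each of the 6 exclusive classes for the wild-type and CD137 knockout libraries. The memory-like class sits at 9.54% and 9%, while the Ccl5-low class is at 10.5% and 28.1% and the proliferating-gated class at 20.4% and 8.08%.

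Against all other CD8 T cells, memory-like cells stood out more by transcripts they lacked than by transcripts they carried. The gate had itself excluded cells by cytotoxic, recently activated and division transcripts. Of 2920 genes with a mean of at least 50 CPM, 8 (0.274%) were at least 2-fold higher in memory-like cells in both libraries, and 36 (1.23%) were at least 2-fold lower in both. The 8 genes were Sidt1, Hopx, Gramd3, Nsg2, Arhgap26, Kbtbd11, Il18r1 and Pik3r5. None of them was 2-fold higher, in both libraries, than both of the neighbouring classes described below. Over all 2920 genes the median log2 ratio was -0.07 in wild type and -0.05 in knockout. The genes named here are the 12 highest and the 12 lowest by the smaller of the ratios in the 2 libraries.

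Sidt1, a member of the SID1 family of transmembrane proteins, led the list. It was at 329 CPM in wild-type memory-like cells against 103 in the other CD8 T cells (log2 ratio 1.67, 1.41 to 1.93), and at 542 against 208 CPM in knockout (1.38, 1.21 to 1.55). A UMI of Sidt1 was found in 64.7% and 86.1% of memory-like cells, with a median of 1 UMI per cell in wild type (range 0 to 7) and 3 in knockout (0 to 12). Hopx, a homeodomain protein known from long-lived T cells, was at 182 against 70.5 CPM in wild type (log2 ratio 1.37, 1.02 to 1.71) and 126 against 41.7 in knockout (1.59, 1.22 to 1.95). Its UMIs were concentrated, since 45 of 85 and 69 of 108 memory-like cells held none and the highest cells held 11 and 9. Il18r1, the ligand-binding chain of the interleukin-18 receptor, through which memory T cells respond to IL-18, was at 208 against 90.8 CPM (1.20, 0.87 to 1.51) and 209 against 97.3 (1.10, 0.83 to 1.37). Its partner chain Il18rap had like ratios of 1.47 and 1.26 but was below 50 CPM on average and was not among the genes compared. The remaining genes of the 12 had log2 ratios from 0.90 to 2.02. They were Gramd3, Nsg2, Arhgap26, Kbtbd11, the phosphoinositide 3-kinase regulatory subunit gene Pik3r5, the interferon-induced gene Epsti1, 1700025G04Rik, the Ras GTPase-activating protein gene Rasa3, and Fgf13. Epsti1 was just under 2-fold in knockout (log2 ratio 0.998).

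Of the 12 lowest genes, 7 were linked to division and the others were Ccl4, Xcl1, Pdcd1, Rgs16 and Tox2. Ccl4, a chemokine of activated T cells, was at 223 CPM in wild-type memory-like cells against 1387 in other CD8 T cells (log2 ratio -2.64, -2.93 to -2.36) and at 132 against 1192 in knockout (-3.18, -3.50 to -2.87). Xcl1, which attracts cross-presenting dendritic cells, was at 127 against 730 CPM and 139 against 602. Pdcd1, encoding the inhibitory receptor PD-1, was at 67.9 against 287 CPM (-2.08, -2.63 to -1.58) and 33.3 against 154 (-2.20, -2.88 to -1.60), and 17 of 85 and 16 of 108 memory-like cells held a UMI, compared with 61.2% and 30.0% of the others. Rgs16, a regulator of G protein signalling, and the nuclear protein gene Tox2 had log2 ratios between -2.55 and -1.68. The 7 division-linked genes were Stmn1, Cks1b, Cenpa, Smc2, Hmgb2, Hmgn2 and 2810417H13Rik. Division transcripts were part of the selection, and when the proliferating-gated cells were taken out of the comparison (a choice made after the values were seen), Hmgb2 had log2 ratios of -0.09 and 0.05, Cenpa -0.36 and -0.34, and Stmn1 -0.90 and -0.87. Under the same restriction Ccl4 was at -2.80 and -3.06, Pdcd1 at -2.22 and -1.97, and Rgs16 at -1.89 and -2.33. Cytotoxic and recently activated transcripts were part of the selection too, and cells gated on them stayed in that comparison. It therefore cannot separate the levels of these genes from the selection. That comparison called 5 genes higher, 4 of them among the 8, and 16 lower, 12 of them among the 36. The 5 were Sidt1, Hopx, Gramd3, Nsg2 and 1700025G04Rik.

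**Figure D2:**
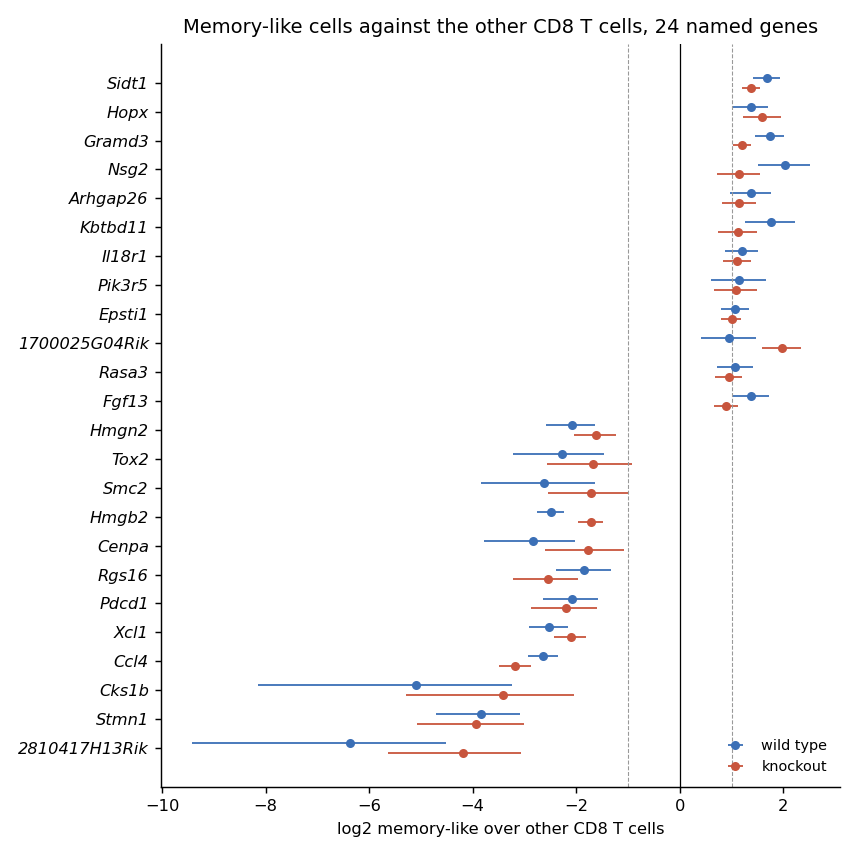
Log2 ratio of CPM in memory-like over other CD8 T cells for the 12 highest and 12 lowest genes, with 1 point per library and exact 95% counting intervals. Dashed lines mark 2-fold. Sidt1, Hopx and Il18r1 lie beyond the upper line in both libraries and Ccl4, Xcl1 and Pdcd1 beyond the lower line in both.

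By gene group, the counts against other CD8 T cells were small, and over all 2920 genes 0.274% were higher and 1.23% lower. The gate itself required 0 UMIs of Gzmb, Havcr2 and Entpd1 and fewer than 2 over Cd200, Nrn1 and Tnfrsf4. Lower counts of chemokine, co-inhibitory and cytotoxic genes therefore cannot be separated from that selection. All 3 chemokines compared were 2-fold lower in both libraries (Ccl3, Ccl4 and Xcl1). Of 8 co-inhibitory and exhaustion genes, 4 were 2-fold lower in both (Pdcd1, Lag3, Tox2 and Rgs16), and the list median was -1.38 in wild type and -1.05 in knockout. Of 7 cytotoxic effector genes, 1 was 2-fold lower in both, Gzma, at 8.48 and 10.6 CPM in the gate against 62.7 and 149 outside it, while the granule protein gene Nkg7 was at 2034 and 1654 CPM against 2722 and 1773. Of 10 glycolysis genes, 1 was 2-fold lower in both, Tpi1. Of 4 IL-18, IL-12 and interferon receptor genes, 1 was 2-fold higher in both (Il18r1), and no gene was 2-fold apart in both libraries among 10 naive and recirculation genes, 13 memory regulator and survival genes, 8 residency genes, 9 integrins, 14 S100, annexin and cytoskeletal genes, 7 gamma-chain cytokine signalling genes, 5 TCR activation genes, 7 interferon response genes, 8 TNF receptor signalling genes, 11 immediate early and stress genes or 12 ribosomal protein genes. None of the 9 further chemokine receptor genes listed was compared, because of low counts.

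The gate lay between a pair of neighbouring classes, the Ccl5-low cells that share its receptors and the cytotoxic-gated cells with at least 4 Ccl5 UMIs that share its chemokine. Against Ccl5-low cells, 54 of 2755 genes (1.96%) were 2-fold higher in memory-like cells in both libraries and 26 (0.944%) lower. Hopx was at 182 and 126 CPM in the gate and 7.76 and 7.30 in Ccl5-low cells (log2 ratios 4.56 and 4.11). The activating receptor gene Klrk1, which encodes NKG2D, differed by 4.47 and 4.99, the protease inhibitor gene Ctla2a by 3.75 and 3.62, the inhibitory receptor gene Klrc1 by 2.30 and 5.99, and the calcium-binding S100a6 by 1.79 and 4.20. Of the genes low against all other CD8 T cells, several were higher in the gate than in Ccl5-low cells. They were Ccl4 (3.04 and 1.97), Xcl1 (1.87 and 2.15), Pdcd1 (1.32 and 2.19), Rgs16 (3.13 and 2.37) and Tox2 (0.71 and 2.43). Lef1 and Ccr7 ran the other way. Lef1, a transcription factor of naive T cells, was at 288 and 292 CPM in the gate and 925 and 1177 in Ccl5-low cells (log2 ratios -1.68 and -2.01), and Ccr7, the chemokine receptor for lymph node entry, differed by -2.50 and -1.15. Sidt1 and Tcf7, the latter a transcription factor of naive and stem-like memory cells, differed much less, by 0.08 and 0.54 for Sidt1 and 0.07 and 0.31 for Tcf7. Gramd3 (0.46 and 0.44), Nsg2 (0.29 and 0.68), Kbtbd11 (0.01 and 0.28) and Pik3r5 (0.66 and 0.48) were also less than 2-fold apart.

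Against cytotoxic-gated cells held to the same minimum of 4 Ccl5 UMIs, 53 of 2957 genes (1.79%) were 2-fold higher in memory-like cells in both libraries and 94 (3.18%) lower. Tcf7 was at 195 and 215 CPM in the gate and 18.3 and 19.4 in those cells (log2 ratios 3.41, 2.64 to 4.28, and 3.47, 2.65 to 4.42). Id3, a transcriptional regulator of memory precursors, differed by 3.39 and 3.65, the tissue exit receptor gene S1pr1 by 2.50 and 2.83, and Klf2, which drives S1pr1, by 2.32 and 2.11. The lower genes included Ccl4 (-4.13 and -5.34), the granzyme gene Gzma (-4.15 and -5.19), Pdcd1 (-3.12 and -3.60), the islet-homing receptor gene Cxcr6 (-2.54 and -3.35) and Lag3 (-2.37 and -2.65). The gate excluded Gzmb, Havcr2 and Entpd1, by which the cytotoxic-gated cells were chosen. Hopx did not separate these classes, with log2 ratios of 0.18 (-0.23 to 0.57) and 0.01 (-0.45 to 0.46). Arhgap26 (1.85 and 0.56) and Il18r1 (0.98 and -0.14) were not 2-fold higher in knockout. Itgb1 separated memory-like cells from both neighbours, at 1.33 and 1.41 over the cytotoxic-gated and 1.17 and 2.61 over the Ccl5-low cells, and the gate had the highest Itgb1 level of the 6 classes in each library.

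**Figure D3:**
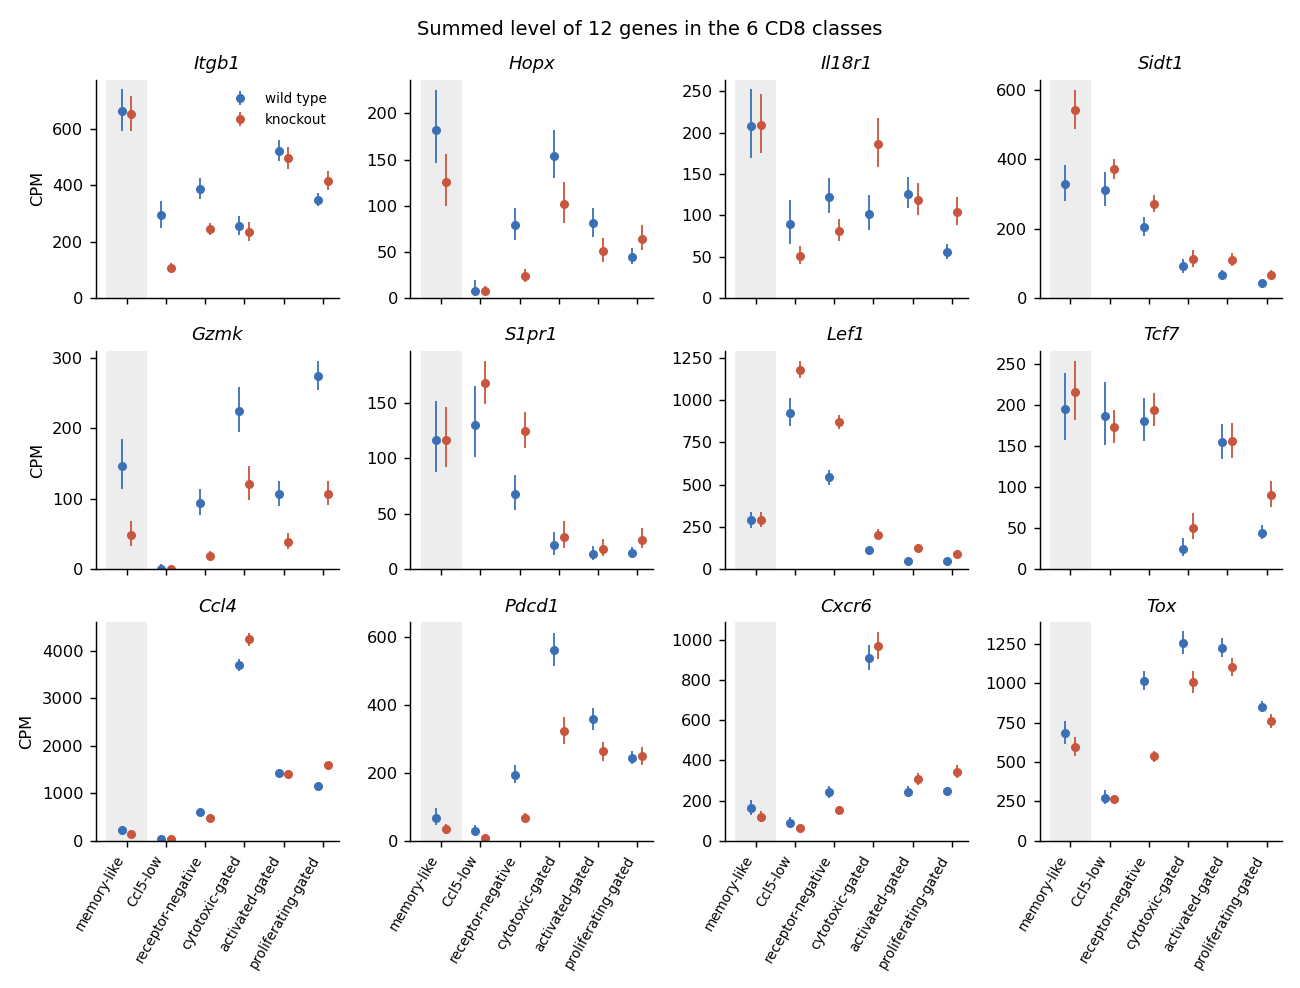
CPM of 12 genes in the 6 CD8 classes of each library, with exact Poisson 95% intervals. Itgb1 is highest in the memory-like class in both libraries (664 and 651 CPM), Hopx is at 182 and 126 CPM there against 7.76 and 7.30 in Ccl5-low cells, and Lef1 stands at 288 and 292 CPM between the Ccl5-low and cytotoxic-gated levels.

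The members were also set apart by the receptor through which they entered the gate, which is a description, since the split uses the gate's own genes. Tox was at 530 CPM in wild-type cells with Il7r alone, 974 in those with Gpr183 alone and 690 in those with both (43, 24 and 18 cells), and at 577, 1185 and 287 CPM in knockout (52, 18 and 38 cells). Cells with Gpr183 alone thus had the highest Tox level in each library, while cells with both receptors lay between the others in wild type and below them in knockout. In wild type the intervals with Gpr183 alone (808 to 1164) and with both (545 to 863) overlapped. Il18r1 was lowest in the cells with Gpr183 alone, at 113 CPM against 280 with Il7r alone and 161 with both in wild type, and at 157 against 232 and 207 in knockout. Its intervals with Gpr183 alone and with both overlapped in wild type (61.6 to 189 and 95.6 to 255) and in knockout (95.9 to 242 and 151 to 275). Itgae, which encodes the residency integrin CD103, had no common order, at 24.2 CPM with Gpr183 alone, 136 with Il7r alone and 108 with both in wild type, and 141, 142 and 40.4 in knockout. The value of 24.2 CPM rested on 3 UMIs in 1 cell (interval 4.98 to 70.6), and that of 108 on 12 UMIs in 3 cells. Ccl4 was at 419 CPM in the wild-type cells with Gpr183 alone, 119 in those with Il7r alone and 224 in those with both, and at 157, 129 and 121 in knockout.

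Inside the gate, knockout was set against wild type for 2814 genes, of which 37 (1.31%) were at least 2-fold higher in the knockout library and 15 (0.533%) at least 2-fold lower. With scaling by trimmed mean of M values (TMM) the counts were 24 and 17. Without the wild-type cell rich in myeloid transcripts, 34 genes were higher and 9 lower, and 7 of the 37 and 7 of the 15 were no longer called. The median log2 ratio over all 2814 genes was 0.03. Of the 37 higher genes, 33 had the same direction in the other CD8 T cells and 4 were past 2-fold there, and of the 15 lower genes 11 had the same direction and 2 were past 2-fold. The higher genes were longer than the genes compared, with a median gene span of 51.4 kb against 26.1 kb, and the lower genes shorter, at 14.2 kb. The part of gene length in these ratios was not tested. Within 10 Mb of Tnfrsf9, 27 genes were compared in the gate, of which 1, Cdk11b, was 2-fold higher in knockout and 0 were lower, with a median log2 ratio of -0.11.

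As a median, genes of naive and recirculating T cells differed less between genotypes inside the gate than in the other CD8 T cells pooled. Single genes did not all follow, class by class. Over the 10 list members compared, the median log2 ratio of knockout over wild type was 0.14 in memory-like cells and 1.19 in the other CD8 T cells, and 1 member, Ccr7, was 2-fold higher in the knockout gate, with none 2-fold lower. The ratio in the gate was below the ratio outside it by more than counting error for 6 of the 10, and above it for 0. After thinning to 2000 UMIs the median in the gate was 0.50. Lef1 was at 288 CPM in wild-type and 292 in knockout memory-like cells (log2 ratio 0.02, -0.30 to 0.35), while in the other CD8 T cells it went from 209 to 580 CPM (1.47), and the log2 ratios of the gate and the rest differed by -1.45 (-1.79 to -1.11). S1pr1 was at 117 CPM in both gates and at 33.2 and 85.5 outside them, a difference of -1.37 (-1.93 to -0.79) between the ratios. For Dapl1 that difference was -1.14 (-1.66 to -0.61), and for Foxp1, which maintains quiescence in naive T cells, -0.97 (-1.27 to -0.66). Ccr7 behaved otherwise, at 36.1 CPM in wild-type and 103 in knockout memory-like cells (1.51, 0.73 to 2.37) and at 46.3 and 116 in the others (1.33), and so did the chromatin organiser gene Satb1 (0.81 and 0.86). Both had a higher ratio in the gate than in any other single class. There Ccr7 ran from 0.17 in Ccl5-low to 1.34 in cytotoxic-gated cells, and Satb1 from -0.13 in cytotoxic-gated to 0.57 in Ccl5-low cells. The other CD8 T cells mix classes whose shares differed between the libraries, with Ccl5-low cells at 28.1% of knockout CD8 T cells. Class by class, the median of the same 10 genes was 0.86 in proliferating-gated, 0.46 in activated-gated, 0.93 in cytotoxic-gated, 0.53 in receptor-negative and 0.28 in Ccl5-low cells. By gene, Lef1, S1pr1 and Foxp1 had a lower ratio in the gate than in any of those classes. Dapl1 was nearer to 0 in Ccl5-low cells (-0.10) than in the gate (0.13), and so was Klf2 (0.22 and 0.28).

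**Figure D4:**
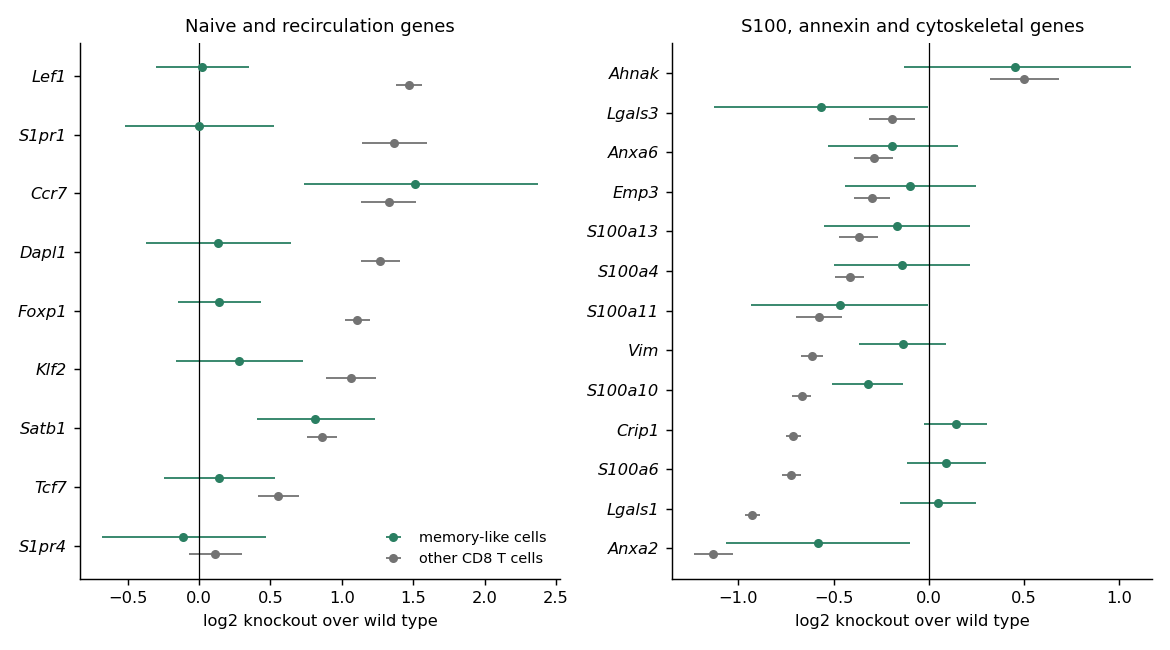
Log2 ratio of CPM in knockout over wild type for 9 naive and recirculation genes and 13 S100, annexin and cytoskeletal genes, in memory-like and in other CD8 T cells. Lef1 is at 0.02 in memory-like and 1.47 in other cells, and Lgals1 at 0.05 and -0.93.

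Genes of the S100, annexin and cytoskeletal group, which are high in antigen-experienced T cells, differed less between genotypes inside the gate than in the other CD8 T cells pooled, but not than in every class of them. Over 13 members the median log2 ratio was -0.14 in memory-like cells and -0.57 in the others, and none was 2-fold apart in the gate. The ratio in the gate was above the pooled ratio outside it by more than counting error for 6 of the 13, and below it for 0. Class by class, the median was -0.10 in proliferating-gated and -0.11 in cytotoxic-gated cells, as near to 0 as in the gate, and -0.45 in activated-gated, -0.48 in receptor-negative and -0.51 in Ccl5-low cells. Lgals1, encoding the sugar-binding protein galectin 1, was at 742 and 768 CPM in the gates and 2118 and 1114 outside them, and the log2 ratios differed by 0.98 (0.77 to 1.18). S100a6 was at 679 and 724 CPM in the gates (log2 ratio 0.09) against -0.72 outside them, where its ratio ran from -2.32 in Ccl5-low to -0.05 in cytotoxic-gated cells, and Crip1 had ratios of 0.14 and -0.71. Of the killer lectin receptors, Klrc1, encoding NKG2A, was at 57.3 and 71.2 CPM in the gates (0.31, -0.40 to 1.05) and at 180 and 77.0 outside them (-1.23), a difference of 1.54 (0.81 to 2.30). The cells outside pool classes whose shares differed between the libraries. Klrc1 was at 328 and 276 CPM in cytotoxic-gated cells with at least 4 Ccl5 UMIs, and at 11.6 and 1.12 in Ccl5-low cells. Klrd1, the partner chain of NKG2A, had ratios of 0.26 and -0.46. Klrk1 was lower in knockout in both, from 172 to 89.4 CPM in the gate (-0.94, -1.45 to -0.44) and by -1.33 outside it. The median of these 3 genes in the gate was 0.26, but it was below 0 under 5 of the 8 alternative settings tried. In the classes outside the gate it ran from -1.77 in receptor-negative to -0.52 in cytotoxic-gated cells.

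The genes named for the genotype comparison are the 12 highest and 12 lowest by the interval bound nearest 0. Samd9l, an interferon-inducible gene that restrains growth and viruses, led the higher ones. It was at 33.9 CPM in wild-type and 130 in knockout memory-like cells (log2 ratio 1.94, 1.16 to 2.81), and it was counted in 16.5% and 50.9% of the cells, with at most 2 and 4 UMIs in any 1 cell. The same direction was seen outside the gate, at 31.0 and 105 CPM (1.75). Cd69, which is displayed early after activation and keeps T cells in tissue, was at 252 and 494 CPM in the gate (0.97, 0.66 to 1.28) with medians of 1 and 2 UMIs per cell, and its ratio outside the gate was 1.00. The RNA helicase gene Dhx9 (38.2 and 120 CPM; 1.65), Scaper (1.48), the cohesin acetyltransferase gene Esco1 (1.63), Mier1 (1.28), Wdr44 (1.41), the kinase gene Cdk11b (1.03), Gm10260 (0.92) and Gramd3 (0.86) were also higher in knockout, and with Ccr7 all had positive ratios outside the gate. Klra1, an inhibitory Ly49 receptor gene, was at 48.8 CPM in wild-type and 123 in knockout memory-like cells (1.33, 0.65 to 2.07) and at 42.0 and 38.2 in the others (-0.14), and the log2 ratios differed by 1.47 (0.74 to 2.24). Among the classes pooled as the others it had no single direction, at 21.3 and 32.6 CPM in Ccl5-low, 84.1 and 95.7 in cytotoxic-gated, 38.1 and 40.2 in proliferating-gated, 36.1 and 29.6 in activated-gated and 33.4 and 22.3 in receptor-negative cells. Its UMIs came from 9 of 85 and 22 of 108 memory-like cells. Klra1 and Gm10260 have near-identical relatives in the genome, so their counts are uncertain.

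Gzmk, the granzyme most typical of memory-phenotype CD8 T cells, led the genes that were lower in the knockout gate. It was at 146 CPM in wild-type and 48.5 in knockout memory-like cells (log2 ratio -1.59, -2.25 to -0.97), and 44.7% of wild-type cells (33.9 to 55.9) held a UMI against 19.4% of knockout cells (12.5 to 28.2). No memory-like cell held more than 6. Thinned to 2000 UMIs the shares were 15.7% and 7.41%, and in Ccl5-low cells 0 of 94 wild-type cells, which by the same limit allows a share of cells with a UMI of up to 3.19%, and 2 of 337 knockout cells (0.59%) held a UMI, at median depths of 5104 and 5095 UMIs. Outside the gate Gzmk was at 180 and 47.3 CPM (-1.93), and the ratios differed by 0.33 with an interval of -0.34 to 0.98. The cells outside pool classes whose shares differed between the libraries. In cytotoxic-gated cells with at least 4 Ccl5 UMIs, Gzmk was at 236 and 145 CPM. The lower level in knockout was therefore not confined to memory-like cells, but its size outside them depended on the cells pooled. Ctla2a, a cysteine protease inhibitor, was at 443 and 221 CPM in the gate (-1.003, -1.32 to -0.69) and had a ratio of -1.67 outside it. Sh2d1a, which encodes the SLAM adaptor SAP, was at 244 and 130 CPM (-0.90) and -1.20 outside the gate. The replication helicase gene Mcm6 (-1.27), the lysosomal gene Hgsnat (-0.62) and Klrk1 also had the same direction outside. For Sp110 (189 and 92.4 CPM; -1.03), Odf2 (-1.34), Idh3g (-1.18), Cdipt (-1.10), Gtf2i (-0.83) and the RNA-binding protein gene Zfp36l2 (259 and 151 CPM; -0.77), the ratio outside the gate lay between -0.22 and -0.02.

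**Figure D5:**
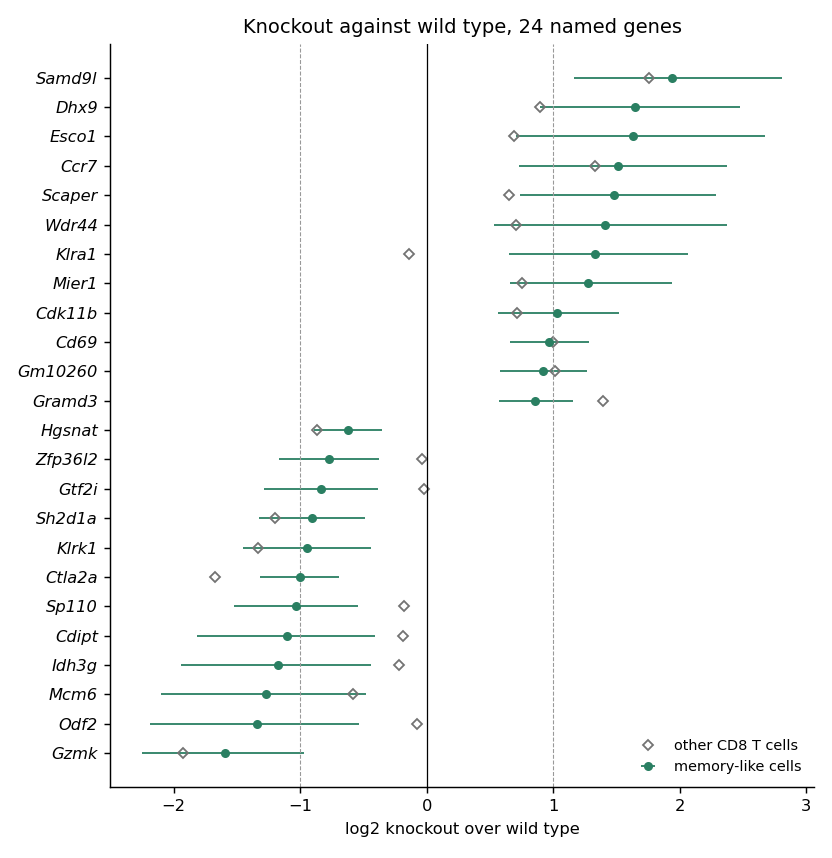
Log2 ratio of CPM in knockout over wild-type memory-like cells for the 12 highest and 12 lowest genes with exact 95% counting intervals, and the ratio in other CD8 T cells as diamonds. Samd9l is at 1.94 in the gate and 1.75 outside it, Klra1 at 1.33 and -0.14, and Gzmk at -1.59 and -1.93.

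The 250 bases upstream of the RefSeq start of Gzmk and Sidt1 are printed because these genes lead the knockout-lower and the memory-like-higher genes. Both are from RefSeq on GRCm38.p6, the minus strand of chr13:113180966-113181215 for Gzmk and of chr16:44332839-44333088 for Sidt1, written 5' to 3'. Capitals mark the T-box core AGGTGT or its reverse complement ACACCT, bound by factors such as T-bet and Eomes, and the RUNX core TGTGGT or its reverse complement ACCACA was searched on both strands as well.
Gzmk: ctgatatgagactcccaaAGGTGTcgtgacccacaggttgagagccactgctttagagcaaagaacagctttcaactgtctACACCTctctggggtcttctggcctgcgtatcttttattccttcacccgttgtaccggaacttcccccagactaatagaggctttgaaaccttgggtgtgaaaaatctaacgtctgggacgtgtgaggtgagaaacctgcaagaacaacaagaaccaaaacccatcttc
Sidt1: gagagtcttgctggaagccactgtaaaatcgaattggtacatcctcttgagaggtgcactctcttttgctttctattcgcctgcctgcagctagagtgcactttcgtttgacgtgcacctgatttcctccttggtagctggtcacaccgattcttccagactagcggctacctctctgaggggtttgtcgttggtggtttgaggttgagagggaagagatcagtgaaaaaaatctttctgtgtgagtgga
The Gzmk window holds 2 T-box matches and 0 RUNX matches, and the Sidt1 window holds neither. Of 32851 upstream windows of this length, 11.8% hold a T-box match and 14.0% a RUNX match. Counted by gene, as below, 13.6% of 27025 genes hold a T-box match and 15.9% a RUNX match. Among the 12 genes highest in memory-like cells, 9 had a window in the table, and 0 of the 9 held either motif. Among the 12 genes lowest in the knockout gate, 8 had a window, 2 of which held a T-box and 2 a RUNX match. Of the 12 highest in the knockout gate, 7 had a window, and 0 held a T-box and 2 a RUNX match. For the 12 lowest in memory-like cells, 9 had a window, and 1 held a T-box and 1 a RUNX match.

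The remaining gene groups differed by less than 2-fold in their medians. Over all 2814 genes compared, 1.31% were 2-fold higher in the knockout gate and 0.533% lower. Of 8 genes of CD137 and TNF receptor signalling compared, none was 2-fold apart in the gate, and the median log2 ratio of knockout over wild type was 0.56 in the gate and 0.49 outside it. Traf1, an adaptor recruited by CD137, was at 144 and 238 CPM in the gate (0.72, 0.30 to 1.15) and had a ratio of 0.11 outside it. The NF-kappaB inhibitors Tnfaip3 and Nfkbia had ratios of 0.96 (0.50 to 1.42) and 0.55 (0.21 to 0.90), beside 0.63 and 0.65 outside the gate. Birc3 and Rel had lower ratios in the gate than outside it, at -0.18 and 0.64 for Birc3 and 0.71 and 1.51 for Rel. Of 7 co-inhibitory genes 1 was 2-fold lower, Pdcd1, at 67.9 and 33.3 CPM (-1.03, -1.88 to -0.20), which was at -0.93 (-1.80 to -0.08) without the wild-type cell rich in myeloid transcripts, with a list median of -0.39 in the gate and -0.25 outside it. Of 7 cytotoxic effector genes 1 was 2-fold lower, Gzmk, while Tbx21, which encodes T-bet, was at 67.9 and 111 CPM (0.70, 0.09 to 1.35). Of 3 chemokines 1 was 2-fold higher, Ccl3 (29.7 and 90.9 CPM), but 1 knockout cell held 40 UMIs, 66.7% of the total. No member was 2-fold apart among 12 memory regulator and survival genes (median 0.07 in the gate and 0.33 outside it), 8 residency genes (0.36 and 0.49), 9 integrins (-0.06 and -0.17), 8 gamma-chain cytokine signalling genes (0.16 and 0.34), 5 IL-18, IL-12 and interferon receptor genes (-0.21 and 0.10), 6 interferon response genes (-0.31 and 0.10), 4 TCR activation genes (0.34 and 0.10), 11 immediate early and stress genes (0.33 and 0.68), 12 ribosomal protein genes (-0.00 and 0.04) or 9 glycolysis genes (-0.18 and -0.42). The medians outside the gate pool classes whose shares differed between the libraries. Within those classes the interferon response median ran from -0.39 in cytotoxic-gated to -0.00 in proliferating-gated cells. That of immediate early and stress genes ran from 0.24 in receptor-negative to 0.57 in proliferating-gated cells. For glycolysis it ran from -0.23 in activated-gated to -0.16 in proliferating-gated cells. Il18r1 and Itgb1 were close to equal in the gates, with ratios of 0.01 (-0.38 to 0.40) and -0.03 (-0.24 to 0.19). The antigen presentation genes Cd74 and H2-Aa were among the 15 lower genes at -4.05 and -3.75, and without the wild-type cell rich in myeloid transcripts they were at 0.79 (-1.01 to 2.91) and 1.79 (-1.37 to 7.35). Plac8 went from -1.18 to -0.51 (-1.04 to 0.02) and Tspan13 from -1.33 to -0.70 (-1.54 to 0.13) without that cell, and both were named after their values were seen.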

How the data were processed

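Islet CD8 T cells and Tregs of wild-type and CD137 knockout reporter mice were profiled as 1 pooled 10x Genomics 3' library per genotype, and groups were taken from the sample labels. The authors deposited raw UMI counts per gene and barcode, made with Cell Ranger 7.0.0 on mm10 and not normalized. Whether intronic reads were counted is not given in the sources used here. The files list 27998 genes, of which 27645 were matched to GENCODE M21 by identifier. The members and gene lists were chosen with earlier results of these data known. A member of the naive and recirculation list is counted in that list's values, and is not reported here by itself.

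UMIs were summed per class and library and scaled to CPM. Genes with a mean of at least 50 CPM over the sums compared were kept, and a gene was called at a 2-fold difference, in both libraries for comparisons between classes. A count of 0 entered a log2 ratio as 0.5 UMI. Intervals at 95% were exact Poisson for CPM, Clopper-Pearson for shares, Newcombe for differences of shares and exact conditional for ratios, and the intervals of both ratios were combined for their difference. No test was made, with 1 library per genotype. Named genes were the 12 highest and 12 lowest, between classes by the smaller ratio and between genotypes by the bound nearest 0. A gene of which 1 cell held over 25% of the UMIs, in the library of the gate where the gene was higher, was not named. For thinned values, each cell was reduced to 2000 UMIs and shallower cells were left out. No doublet caller was run, and possible doublets were examined with gene lists of other cell types. The interval and count steps were tested on simulated data. Promoter windows came from RefSeq. Python 3.11.15, numpy 2.4.6, scipy 1.17.1, pandas 2.3.3, matplotlib 3.10.9 and R 4.3.3 with edgeR 4.0.16 (TMM factors only) were used. Alternatives covered cell filters, gate thresholds, denominators, scaling, weighting of cells, the CPM minimum and depth.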

Additional observations from a re-analysis of the deposited data

Results flagged for a closer look

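H2-Aa, a class II antigen presentation gene, had log2 ratios of knockout over wild type of opposite sign in the 2 sets of cells, -3.75 in memory-like cells and 1.04 in the other CD8 T cells, and the difference was not tested. It was the only 1 of 2590 genes compared in both that was 2-fold apart in opposite directions. Of the H2-Aa UMIs in the wild-type gate, 47 lay in a single cell that also held 114 Cd74 and 58 Tyrobp UMIs. Without that cell H2-Aa was at 2.19 CPM in wild-type and 7.57 in knockout memory-like cells, a log2 ratio of 1.79 with an interval of -1.37 to 7.35.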

How the results depend on the processing

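With 1 library per genotype, depth and the pooling of mice limit every comparison, and genes near 50 CPM rest on about 24 to 33 UMIs per gate. The difference in the share of memory-like cells stayed between -1.08 and -0.03 percentage points under 8 of 10 settings, but was 9.61 among CD8 T cells with at least 4 Ccl5 UMIs and -11.6 without cells holding 2 or more UMIs of another cell type list. The latter left 174 wild-type and 399 knockout CD8 T cells, since CD8 T cells themselves carry genes of the lists. A version chosen after seeing the data, without cells holding 2 genes of a list and with the Treg list aside, gave -0.72. Genes higher and lower in memory-like cells numbered 18 and 91 of 5736 at a minimum of 20 CPM, and 5 and 17 of 1372 at 100 CPM. They numbered 5 and 20 of 2936 with equal weight for each cell, and 5 and 16 without proliferating-gated cells. After thinning, 23 of 2908 were lower. Genes higher and lower in the knockout gate numbered 198 and 123 of 5579 at 20 CPM, and 4 and 4 of 1326 at 100 CPM. After thinning they numbered 146 and 87 of 2902, beside 37 and 15 of 2814 without it. There were 24 higher genes with TMM factors, and 9 lower ones under the stricter cell filter and also without the myeloid-rich cell, which that filter removes. At 100 CPM the higher genes in the gate were Arhgap26, Gramd3, Hopx, Il18r1 and Sidt1, those higher in knockout 4932438A13Rik, Cdk11b, Mier1 and Prpf4b, and those lower Cd74, Ctla2a, Plac8 and Sp110. Without the myeloid-rich cell Cd74 (0.79), Plac8 (-0.51) and 4932438A13Rik (0.96) were not past 2-fold in these directions. With equal weight the higher genes in the gate were Arhgap26, Gramd3, Hopx, Nsg2 and Sidt1. A higher or lower minimum changes how many genes are compared, and for the other settings the cause was not tested. Over 8 alternatives, 361 of 384 values of named genes stayed within their counting intervals and 0 changed sign. Of 136 list medians 11 crossed 0, in 6 lists, 5 of them for the killer lectin receptors. After thinning Klra1 was at 4.71, Wdr44 at 3.62 and Ccr7 at 0.53, so ratios of genes with few UMIs are imprecise.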
